A study of Rattus norvegicus with 6 samples.

Results

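DNA replication and S phase genes were followed in rat cardiac fibroblasts that had been given an antagomiR against miR-142-3p or a negative control. The set held 47 genes, taken by symbol from a table of 30560 genes, and they were read by role, from the licensing of origins to the supply of nucleotides. They occupied 48 rows, because Rnaseh2a has 2 entries. The cells were primary ventricular fibroblasts of newborn Sprague-Dawley rats, aged 1 to 2 days, enriched by letting them attach before the cardiomyocytes were washed off. They had been kept without serum overnight, which all 6 cultures share, and were then transfected with lipid carrying 50 nM of the antagomiR (3 libraries) or of the control oligonucleotide, called NC (3 libraries). The labels name no separate isolations behind the replicate numbers, so a p-value covers the spread between these libraries, which may be technical.

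Before a cell copies its genome, the origin recognition complex with Cdc6 and Cdt1 loads the MCM helicase onto DNA, and geminin blocks Cdt1 once this is done. Kinases and further factors then switch the helicase on, polymerases copy each strand with the sliding clamp PCNA, and fragments of the lagging strand are trimmed and joined. Many of these genes are transcribed at the border of G1 and S phase under E2F transcription factors, so their transcripts are scarce in resting cells. Fibroblasts deprived of serum largely leave the cycle; the cells here were starved before transfection, and the labels give no medium for the time after it.

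The target of the antagomiR is shown because it is the only agent that sets the groups apart. The mature sequence is RefSeq's, at chr10:73055155-73055177 on the plus strand of GRCr8, and capitals mark the seed, bases 2 to 8, which pairs with target transcripts.
rno-miR-142-3p: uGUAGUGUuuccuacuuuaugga

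Values are FPKM, fragment counts scaled to transcript length and library size, which allows levels to be compared between genes. Fold changes are antagomiR minus NC on the scale of log2(FPKM + 1). This scale understates changes at low levels, most of all near or below 1 FPKM, so the ratio of the group means is often given beside them. It also reaches genes of a few FPKM. Mcm5 had a log2 fold change of 1.29 on this scale and of 1.5 with 0.1 added in place of 1. A gene was tested where its mean over the 6 libraries was at least 1 FPKM. A gene below 1 FPKM in NC could therefore pass this filter through the antagomiR group alone. A gene is said to have risen or fallen where limma gave an adjusted p under 0.05 over all 12024 tested genes. Library totals, recovered from the FPKM values, lay between 19472409 and 24622667 fragments, so that 3 fragments on a gene of 1 kb correspond to between 0.122 and 0.154 FPKM, counting error only.

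The libraries carried the transcripts of fibroblasts in large amounts, and 1 control library stood apart in its leukocyte transcripts. The 10 fibroblast markers summed to between 12700 and 12900 FPKM in NC and between 12000 and 12200 FPKM with the antagomiR, and 6 of them rose while Col1a2 and Vim fell. Of 6 endothelial markers, Emcn was at 0 in all libraries and Pecam1, Cdh5, Kdr and Vwf stayed below 0.3 FPKM. The sixth, Tek, lay between 1.57 and 2.02 FPKM in NC and between 2.46 and 2.65 FPKM with the antagomiR, and it rose (log2 fold change 0.32, limma adjusted p = 0.0417). The 7 cardiomyocyte markers, most of their sum from Tnnt2, reached 417 to 462 FPKM in NC and 339 to 400 FPKM with the antagomiR. Of these, Tnnt2 fell, while Actc1 and Myl2 rose by 0.37 and 0.41 (log2). The 14 measured leukocyte markers summed to 146, 215 and 755 FPKM in NC replicates 1, 2 and 3, and to 1080, 972 and 1020 FPKM in the antagomiR replicates. Of those 14 markers 6 rose (Ptprc, Adgre1, Cd14, Tyrobp, Fcer1g and Laptm5) and none fell. Lyz2, the largest part of the sum in every library, was not called (limma adjusted p = 0.0511). In 9 of the 14 every antagomiR library lay above every NC library. Cd68, Mrc1, C1qa, C1qb and Cd74 overlapped, with NC replicate 3 above every antagomiR library. Mrc1, C1qa, C1qb and Cd74 had ratios of group means of 0.94, 1.01, 0.98 and 0.77. The mural markers summed to between 42.0 and 47.9 FPKM in NC and between 27.9 and 29.0 FPKM with the antagomiR. Myh11 and Notch3 carried that fall. Kcnj8 and Abcc9, both too low to be tested, had every antagomiR library above every NC library, and Rgs5 overlapped. The epicardial markers summed to between 14.6 and 16.3 FPKM in NC and between 9.76 and 12.4 FPKM with the antagomiR. Among them Upk3b and Msln fell, while Wt1, not called, had every antagomiR library above every NC library. The part of all these cell types in the results below was not tested. The median deviation of the replication genes from the NC mean was -0.01, -0.02 and 0.04 (log2) in NC replicates 1, 2 and 3 and 0.47, 0.45 and 0.47 in the antagomiR replicates. NC replicate 3 had the highest median of the controls and was the highest control in 21 of the 43 tested members, against 12 and 10 for NC replicates 1 and 2. It was also the lowest control in 15 members, against 15 and 13 for NC replicates 1 and 2. In bulk RNA, more cells in S phase and more transcript per cell cannot be told apart, and neither can the cell type that carries a transcript.

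**Figure D1:**
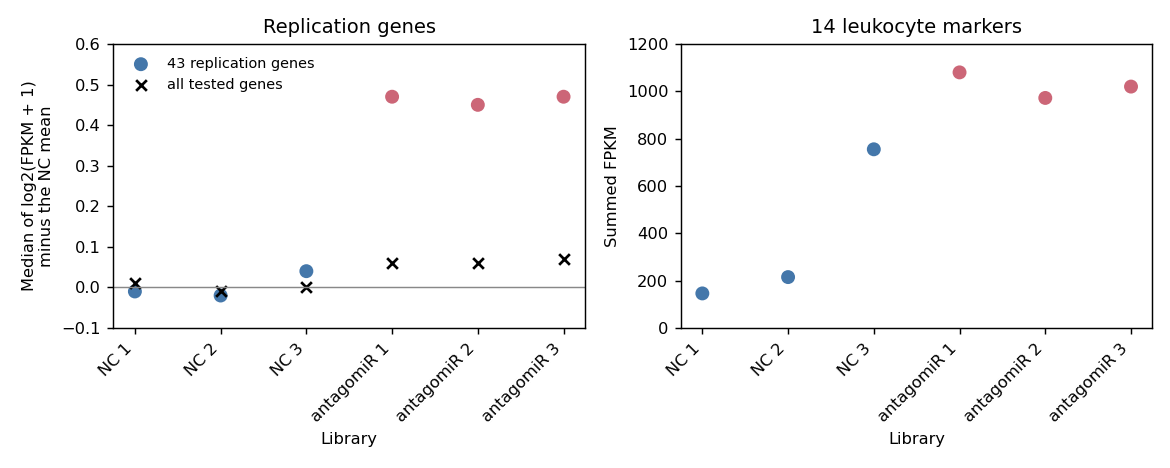
Left, the median over 43 replication genes (circles) and over all 12024 tested genes (crosses) of log2(FPKM + 1) minus the NC mean of each gene, by library; right, the summed FPKM of 14 leukocyte markers in the same libraries. NC replicate 3 has 755 FPKM of leukocyte markers, against 146 and 215 FPKM in the other controls, and the median of its replication genes is 0.04, against -0.01 and -0.02 in those controls and 0.45 to 0.47 in the antagomiR libraries.

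The comparison of antagomiR with NC asks whether targeting miR-142-3p altered the replication programme. Of 43 replication genes above the filter, 30 rose (69.8%), where 17.5% of all tested genes rose. None fell by limma, where 9.21% of all tested genes did; 0 had an unadjusted p under 0.05 in that direction, and limma voom on recovered fragments called 0 down and 32 up. The median log2 fold change was 0.48, against 0.06 over all tested genes. In 33 of the 43 every antagomiR library lay above every NC library, which held for 29.2% of all tested genes. Among the risen genes the ratio of group means ran from 1.26 to 2.88, with 8 genes at 2 or more and 20 at 1.5 or more. Mcm10, which rose, and Gins3, tested but not called, passed the filter only through the antagomiR group. Under median-ratio scaling 27 rose, against 13.1% of all genes. Quantile normalization, which shifts the median of all genes by -0.11, left 24, against 11.8% of all genes. None fell under either. Without NC replicate 3, the control library with the high leukocyte sum, 32 members rose, against 26.5% of all genes. The controls left in that fit had leukocyte sums of 146 and 215 FPKM, against 972 to 1080 FPKM with the antagomiR. That fit therefore does not test the part of leukocytes.

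**Figure D2:**
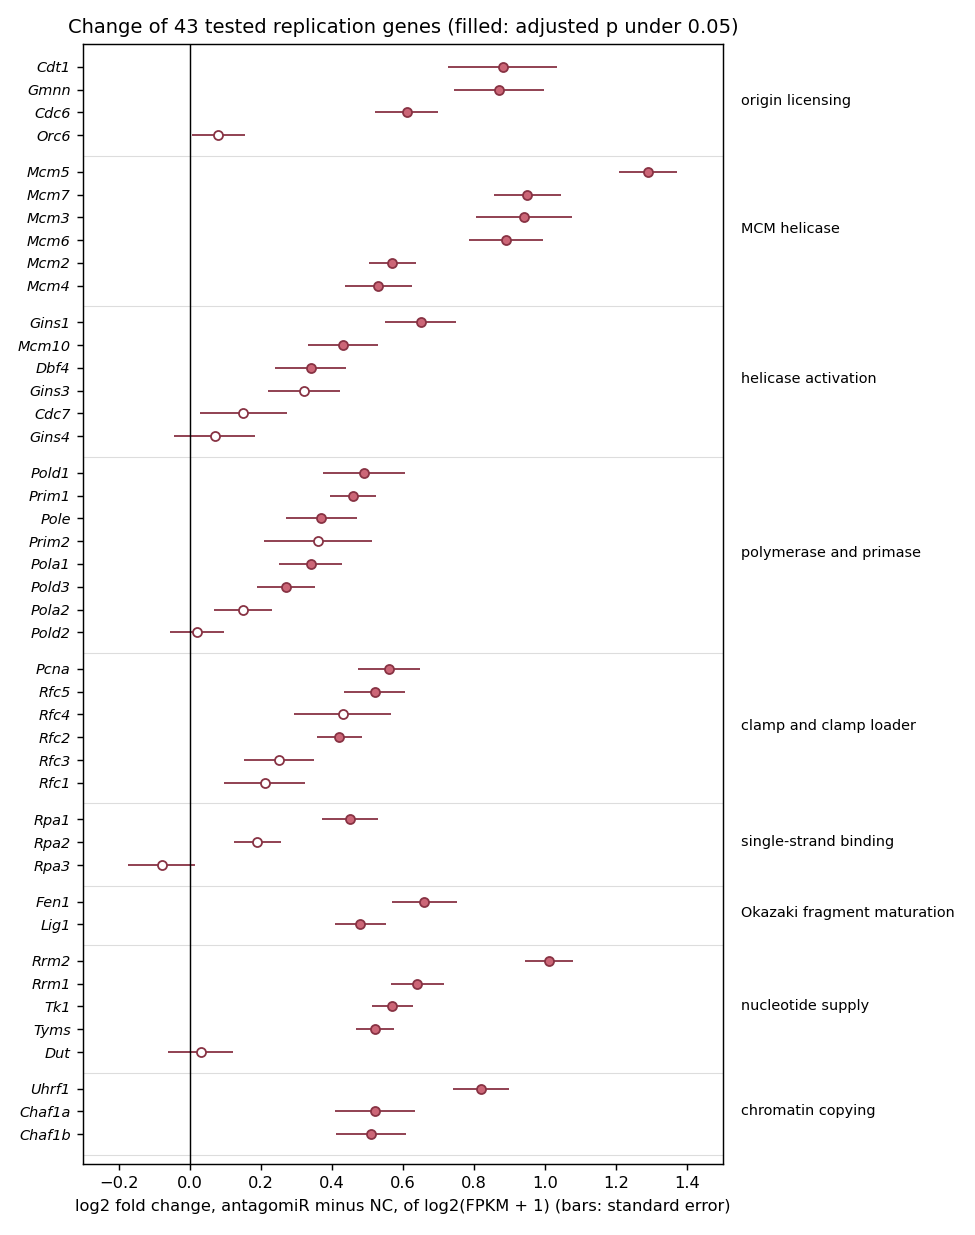
Log2 fold change (antagomiR minus NC, of log2(FPKM + 1)) with its standard error for the 43 tested replication genes, grouped by role; filled circles have a limma adjusted p under 0.05. All 6 MCM subunits are filled, from 0.53 to 1.29, while each of polymerase delta, GINS, replication protein A and the clamp loader has at least 1 open circle.

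Of 4 tested licensing genes 3 rose, and Orc6 did not pass the test. Cdt1, which brings the helicase to origins, was at 1.1, 2.19 and 1.72 FPKM in NC against 4.02, 3.95 and 3.56 FPKM with the antagomiR, a log2 fold change of 0.88 ± 0.154 SE (limma adjusted p = 0.00613). Gmnn, which encodes the Cdt1 inhibitor geminin, was at 2.09, 1.93 and 1.51 FPKM and then at 4.36, 3.48 and 4.75 FPKM (log2 fold change 0.87 ± 0.126 SE, limma adjusted p = 0.00287). The groups were separate for both genes, and their log2 fold changes were close. The ratio of Cdt1 to Gmnn, chosen after the values were seen, overlapped between groups. It had a mean of 0.936 in each and a log2 difference of 0.07 (exact two-sided permutation test, p = 1). The ratio ran from 0.526 to 1.14 within NC alone, so the test cannot show equal rises.

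Cdc6, the loading ATPase, was steady within NC at 1.33, 1.3 and 1.35 FPKM and went to 2.32, 2.81 and 2.52 FPKM, 1.93 times the NC mean (limma adjusted p = 0.00278). Orc1, the subunit of the recognition complex that comes and goes with the cycle, lay below the filter, at 0.488, 0.392 and 0.396 FPKM in NC against 0.992, 1.06 and 0.816 FPKM with the antagomiR. Those values rest on 23 to 77 fragments a library, and the ratio of means was 2.25. Every antagomiR library was above every control, and with no filter the gene was called at a log2 fold change of 0.46 (limma adjusted p = 0.00924). Orc6, another subunit, was at 4.06, 4.31 and 4.43 FPKM in NC against 4.8, 4.22 and 4.66 FPKM with the antagomiR. The groups of Orc6 overlapped (log2 fold change 0.08 ± 0.075 SE, limma adjusted p = 0.495), and under quantile normalization its sign was negative.

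All 6 subunits of the MCM2-7 helicase, the ring that unwinds DNA ahead of the fork, rose, and no antagomiR library of any subunit reached down to a control. Mcm5 went furthest, from 3.0, 3.54 and 3.6 FPKM to 9.62, 9.26 and 10.3 FPKM, 2.88 times the NC mean, with a log2 fold change of 1.29 ± 0.082 SE (limma adjusted p = 0.000107). Mcm7 was at 8.61, 8.31 and 10.8 FPKM in NC against 18.4, 18.8 and 19.0 FPKM with the antagomiR (log2 fold change 0.95, limma adjusted p = 0.000603). Mcm7 shares its span on chromosome 12, from 17042212 to 17050063 in mRatBN7.2, with Cops6, Ap4m1 and the microRNA genes Mir25, Mir93 and Mir106b. Whether reads shared with those genes were counted or dropped was not tested.

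Mcm3 was at 3.78, 4.18 and 5.42 FPKM and then at 10.6, 9.63 and 8.06 FPKM, 2.11 times the NC mean (limma adjusted p = 0.00282). Mcm6 was at 4.16, 5.03 and 5.81 FPKM and then at 10.1, 9.84 and 10.1 FPKM, 2.01 times (limma adjusted p = 0.00116). NC replicate 3 was the highest control in Mcm3 and Mcm6, as in Mcm5 and Mcm7, and lay below every antagomiR library. In Mcm4 it was the lowest control, and in Mcm2 it lay between the others. Its leukocyte sum, of which Lyz2 was the largest part, also lay below every antagomiR library. The markers Cd68, Mrc1, C1qa, C1qb and Cd74 did not, being higher in NC replicate 3. The part of leukocytes was not tested. The smaller rises were those of Mcm2, from 9.17, 10.4 and 9.2 to 14.8, 14.8 and 14.5 FPKM (1.53 times), and Mcm4, from 9.22, 8.08 and 7.27 to 12.9, 11.2 and 12.6 FPKM (1.49 times).

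Per length, the mean level of the subunits ran from 3.38 FPKM (Mcm5) to 9.6 FPKM (Mcm2) in NC and from 9.42 FPKM (Mcm3) to 18.7 FPKM (Mcm7) with the antagomiR. The ratio of Mcm5 to Mcm2 was 0.327, 0.339 and 0.392 in NC and 0.648, 0.626 and 0.71 with the antagomiR (exact two-sided permutation test, p = 0.1, the smallest that 3 against 3 allows). Summed over the 6 subunits, the level was 37.9, 39.6 and 42.1 FPKM in NC against 76.4, 73.5 and 74.6 FPKM with the antagomiR, a ratio of means of 1.88. Each of the 6 kept its call under all 17 alternative settings.

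**Figure D3:**
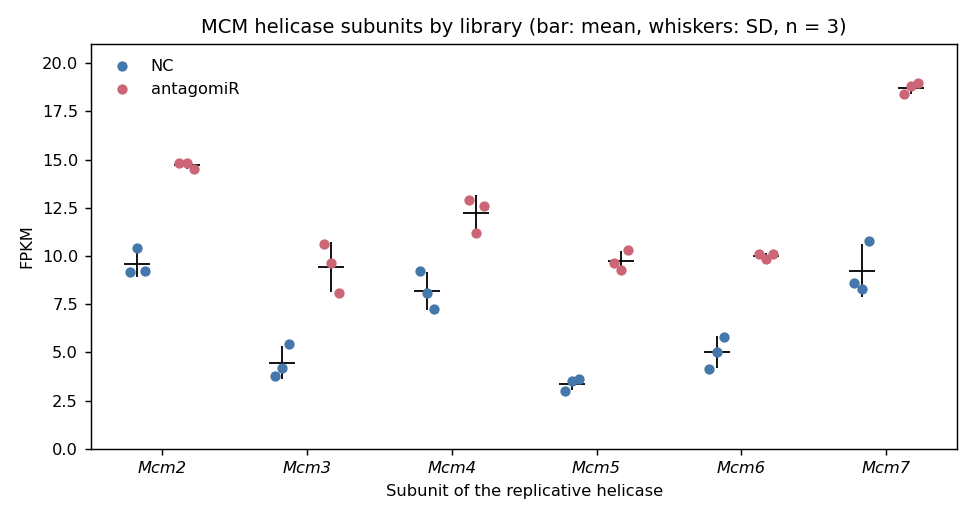
FPKM of the 6 MCM helicase subunits in each library (points), with the group mean and SD (n = 3). Mcm5 moves from a mean of 3.38 to 9.73 FPKM, and in each subunit the antagomiR points lie above all NC points.

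Of the factors that activate the loaded helicase, 3 of 6 tested rose and none fell. Gins1, a subunit of the GINS ring that completes the active helicase, was at 1.9, 2.23 and 1.88 FPKM in NC against 3.24, 3.89 and 4.06 FPKM with the antagomiR (log2 fold change 0.65 ± 0.1 SE, limma adjusted p = 0.00348). Its partner Gins4 was at 2.89, 3.46 and 2.74 FPKM and then at 3.81, 2.93 and 2.98 FPKM, with overlapping groups (0.07 ± 0.114 SE, limma adjusted p = 0.691). The sign for Gins4 turned under quantile normalization and without antagomiR replicate 1, and its span overlaps Golga7. Gins3, at a log2 fold change of 0.32, missed the threshold (limma adjusted p = 0.0545) and was called at 0.64 by voom (adjusted p = 0.0367). Gins2 was below the filter at 0.429, 0.62 and 0.569 FPKM in NC against 0.612, 0.93 and 0.95 FPKM with the antagomiR, where the groups overlapped.

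Mcm10, which helps the helicase to start, was at 0.768, 0.774 and 1.03 FPKM and then at 1.45, 1.52 and 1.52 FPKM, 1.75 times the NC mean (limma adjusted p = 0.0178). Its NC mean of 0.857 FPKM lay below the filter, which it passed through the antagomiR group. Its groups were separate, but leaving out NC replicate 2 raised the adjusted p to 0.0633, and leaving out antagomiR replicate 1, 2 or 3 raised it to 0.0607, 0.0692 and 0.0748. The kinase that fires origins is made of Cdc7 and its activator Dbf4. Dbf4 was at 3.35, 2.82 and 3.62 FPKM and then at 3.96, 4.67 and 4.55 FPKM (log2 fold change 0.34, limma adjusted p = 0.0431), a call lost in 10 of 16 alternatives, among them each fit without 1 library other than NC replicate 3 (adjusted p between 0.0604 and 0.143). Cdc7 was not called, with 1.66, 1.17 and 1.91 FPKM in NC against 1.87, 1.86 and 1.76 FPKM with the antagomiR, and its value fell to -6.26e-05 under quantile normalization.

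Polymerase and primase genes changed less than the helicase, and 5 of 8 tested rose. Prim1, the catalytic subunit of primase, which lays down RNA primers, was at 10.3, 9.76 and 9.22 FPKM in NC against 14.5, 13.2 and 13.7 FPKM with the antagomiR (log2 fold change 0.46 ± 0.065 SE, limma adjusted p = 0.00267). Prim2, its regulatory partner, was at 2.32, 2.74 and 2.78 FPKM and then at 3.99, 2.68 and 4.42 FPKM, so antagomiR replicate 2 lay among the controls. Prim2 was not called (limma adjusted p = 0.126), and without antagomiR replicate 2 it was, at 0.53 (adjusted p = 0.0239).

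Pola1, the catalytic subunit of polymerase alpha, was at 1.92, 1.61 and 1.76 FPKM and then at 2.36, 2.41 and 2.7 FPKM (log2 fold change 0.34, limma adjusted p = 0.0299). Pola2, its accessory subunit, had overlapping groups and a log2 fold change of 0.15 (limma adjusted p = 0.214). Pold1, the catalytic subunit of the lagging strand polymerase delta, was at 1.87, 2.16 and 2.67 FPKM and then at 3.25, 3.42 and 3.93 FPKM, 1.58 times the NC mean (limma adjusted p = 0.0193). Pold2, an accessory subunit, did not separate, with 6.8, 6.37 and 7.45 FPKM in NC against 6.69, 7.33 and 6.98 FPKM with the antagomiR (0.02 ± 0.075 SE, limma adjusted p = 0.84, with the sign turning under both other scalings and without NC replicate 2 or antagomiR replicate 2).

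Pole, the catalytic subunit of the leading strand polymerase epsilon, had a log2 fold change of 0.37 (limma adjusted p = 0.0346), and Pold3 one of 0.27 (limma adjusted p = 0.048). Pole2, the second epsilon subunit, was below the filter, at 0.814, 0.496 and 0.499 FPKM in NC against 1.16, 1.42 and 1.17 FPKM with the antagomiR, from 18 to 64 fragments. Its groups were separate, and with no filter it was called at 0.49 (limma adjusted p = 0.0258).

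Of the 5 risen polymerase and primase genes, all but Prim1 lost the call in at least 1 alternative. When a single library was left out, the call of Pola1 was lost without NC replicate 2 and without antagomiR replicate 1, 2 or 3 (adjusted p = 0.098, 0.0733, 0.0838 and 0.124), and that of Pole without the same 4 (0.0609, 0.101, 0.12 and 0.0939). Pold1 lost it without NC replicate 2 and antagomiR replicates 2 and 3 (0.0666, 0.0611 and 0.0819). Pold3 lost it without NC replicate 1 or 2 and antagomiR replicate 1 or 3 (0.0871, 0.121, 0.164 and 0.166). The fold changes themselves held their sign throughout.

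The sliding clamp and part of its loader rose. Pcna, the ring that tethers polymerases and the most abundant clamp gene here, was at 17.5, 17.9 and 21.1 FPKM in NC against 30.7, 27.1 and 26.9 FPKM with the antagomiR (log2 fold change 0.56 ± 0.088 SE, limma adjusted p = 0.00396). The replication factor C subunits load that ring. Rfc2 was at 4.62, 4.39 and 4.72 FPKM and then at 6.62, 6.5 and 6.31 FPKM (limma adjusted p = 0.00327), and Rfc5 at 6.23, 7.7 and 6.51 FPKM and then at 10.1, 9.67 and 10.6 FPKM (limma adjusted p = 0.00507). Both had separate groups, at 1.41 and 1.49 times the NC mean.

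The other loader subunits were not called. Rfc4 was at 4.73, 4.14 and 6.31 FPKM in NC against 7.82, 6.89 and 6.59 FPKM with the antagomiR (separate groups, 0.43, limma adjusted p = 0.0553), and without NC replicate 3, its highest control, it was called at 0.57 (adjusted p = 0.00223). Rfc3 had overlapping groups, with 8.09, 7.09 and 9.36 FPKM and then 10.3, 9.26 and 9.98 FPKM (0.25, limma adjusted p = 0.111). Without NC replicate 3, again the highest control, Rfc3 was called at 0.34 (limma adjusted p = 0.0113). Rfc1, the large subunit, was at 12, 10.8 and 8.47 FPKM and then at 12.5, 12.1 and 11.7 FPKM. There NC replicate 3 was the lowest control, and without it the log2 fold change went from 0.21 to 0.08.

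Replication protein A coats single-stranded DNA as a trimer, and 1 of its 3 subunits rose. Rpa1, the large subunit, was at 8.99, 9.75 and 11.0 FPKM in NC against 13.4, 14.2 and 14.1 FPKM with the antagomiR (log2 fold change 0.45 ± 0.079 SE, limma adjusted p = 0.00596). Rpa2 was at 10, 9.64 and 9.89 FPKM and then at 12, 10.5 and 11.7 FPKM, separate groups with a log2 fold change of 0.19 that missed the threshold (limma adjusted p = 0.0719). Rpa3, the smallest subunit, was at 11.5, 9.94 and 8.92 FPKM and then at 9.31, 9.22 and 10 FPKM. It alone among the 43 had a negative log2 fold change in the test as described, -0.08 ± 0.093 SE (limma adjusted p = 0.595), which became 0.01 without NC replicate 1.

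Both measured enzymes that finish Okazaki fragments, the short pieces of the lagging strand, rose. Fen1, the flap nuclease, was at 2.88, 3.64 and 3.4 FPKM in NC against 5.41, 5.83 and 6.1 FPKM with the antagomiR (log2 fold change 0.66 ± 0.091 SE, limma adjusted p = 0.00237). Lig1, the ligase that seals the pieces, was at 7.76, 7.78 and 6.91 FPKM and then at 10.7, 11.5 and 10.3 FPKM (0.48 ± 0.072 SE, limma adjusted p = 0.00328). Rnaseh2a, the catalytic subunit of an enzyme that removes RNA from DNA, cannot be read from this table. Its 2 entries cover nearly the same stretch of chromosome 19, from 23186383 to 23196041 and from 23186364 to 23196042, and hold 1 or 2 fragments a library and 0; whether reads shared by both entries were dropped was not tested.

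Of the 5 nucleotide supply genes 4 rose, and Dut did not pass the test. Rrm2, the subunit of ribonucleotide reductase that is made in S phase, was at 6.07, 5.91 and 6.37 FPKM in NC against 12.5, 14.1 and 13.5 FPKM with the antagomiR (log2 fold change 1.01 ± 0.067 SE, limma adjusted p = 0.000123). Rrm1, the large subunit of the same enzyme and the most abundant gene of the set with the antagomiR beside Pcna, was at 17.7, 18.1 and 21.1 FPKM and then at 30.7, 29.1 and 30.3 FPKM (0.64 ± 0.075 SE, limma adjusted p = 0.00116). The ratio of Rrm2 to Rrm1 was 0.343, 0.326 and 0.301 in NC and 0.407, 0.485 and 0.445 with the antagomiR, without overlap.

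The thymidine enzymes had the smallest standard errors of the group. Tk1, thymidine kinase, was at 8.81, 9.08 and 8.37 FPKM and then at 13.5, 13.9 and 13.2 FPKM (log2 fold change 0.57 ± 0.058 SE, limma adjusted p = 0.000617). Tyms, thymidylate synthase, was at 11.6, 12 and 11.4 FPKM and then at 17.2, 16.6 and 17.7 FPKM (0.52 ± 0.054 SE, limma adjusted p = 0.000679). Dut, which removes dUTP so that uracil is not built into DNA, was at 9.82, 8.08 and 10.2 FPKM and then at 9.36, 9.25 and 10.1 FPKM. Its antagomiR values lay inside the control range (0.03 ± 0.092 SE, limma adjusted p = 0.839), and the sign was negative under both other scalings and without NC replicate 2 or antagomiR replicate 3.

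The genes that copy chromatin behind the fork rose. Uhrf1, which guides maintenance of DNA methylation to new strands, was at 2.93, 2.95 and 3.16 FPKM in NC against 6.32, 6.45 and 5.55 FPKM with the antagomiR, 2.03 times the NC mean (log2 fold change 0.82 ± 0.079 SE, limma adjusted p = 0.000497). The subunits of chromatin assembly factor 1, which places histones on new DNA, rose by less. Chaf1a was at 4.59, 3.91 and 3.32 FPKM and then at 6.39, 6.34 and 5.42 FPKM with a limma adjusted p of 0.0148, which rose to 0.0521 when NC replicate 2 was left out and to 0.063 and 0.0623 when antagomiR replicate 1 or 2 was. Chaf1b was at 1.54, 1.32 and 1.26 FPKM and then at 2.13, 2.3 and 2.66 FPKM, from 24 to 59 fragments (limma adjusted p = 0.00989).

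Ratios between partners within a library do not depend on the scaling of that library. Of 8 ratios, chosen after the values were seen and so given as a description, 6 were separate between groups: Rrm2 to Rrm1, Rpa1 to Rpa3, Pold1 to Pold2, Gins1 to Gins4, Pola1 to Pola2 and Mcm5 to Mcm2. Each of the 6 gave p = 0.1 in an exact two-sided permutation test, the smallest that 3 against 3 libraries allow, and 0.133 after Benjamini-Hochberg adjustment over the 8, so no ratio passed a threshold of 0.05. Pold1 to Pold2 was 0.275, 0.339 and 0.359 in NC and 0.486, 0.467 and 0.562 with the antagomiR. Gins1 to Gins4 was 0.658, 0.643 and 0.686 in NC and 0.852, 1.33 and 1.36 with the antagomiR, with antagomiR replicate 1 nearest to the controls. In both pairs the partner that rose was below the other in every control library, so the levels drew closer, and Gins1 passed Gins4 in antagomiR replicates 2 and 3. Rpa1 to Rpa3 went from 0.782, 0.981 and 1.24 to 1.44, 1.54 and 1.41, and Prim1 to Prim2 overlapped between groups.

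**Figure D4:**
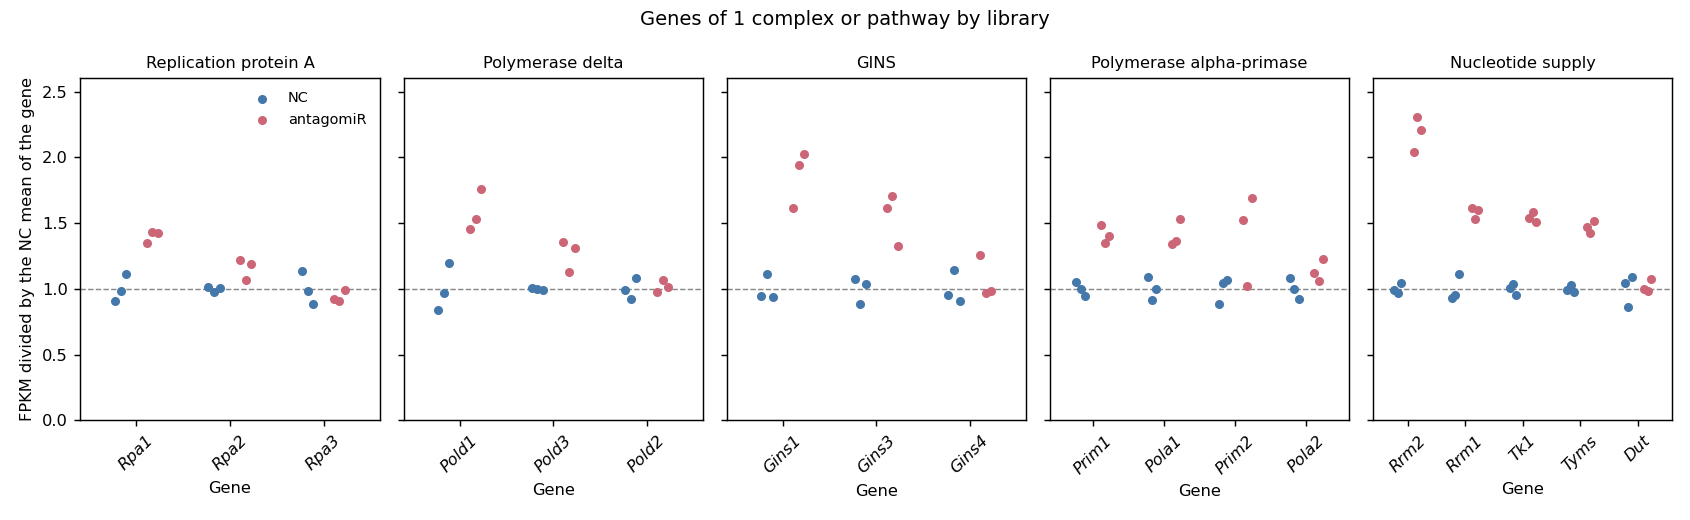
FPKM divided by the gene's NC mean, by library, for subunits of 4 complexes and for the nucleotide supply genes; the dashed line marks the NC mean. Rpa3, Pold2, Gins4 and Dut stay around 1, with ratios of group means of 0.94, 1.02, 1.07 and 1.02, while Rpa1, Pold1, Gins1 and Rrm2 lie at 1.4, 1.58, 1.86 and 2.18.

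Other genes of replication and S phase, from a list of 75 symbols, gave a more mixed picture. Of 65 tested entries 29 rose (44.6%) and 1 fell. Their median was 0.21 on the log2 scale; 5 symbols were not analysed here. Of fork and polymerase entries 9 of 16 rose, of chromatin copying genes 4 of 6, and of S phase regulators 10 of 15. Pole3 is counted there by separate entries. Its entry on chromosome 7, with 62 to 119 fragments, rose (limma adjusted p = 0.00974). Its entry on chromosome 5, with 506 to 766 fragments, was not called (limma adjusted p = 0.0681). Among the risen entries, E2f2, Timeless, Clspn and Hells passed the filter only through the antagomiR group. Only 1 of 9 checkpoint genes, 2 of 10 further nucleotide genes and 3 of 9 further origin and helicase genes rose, shares of 11.1%, 20% and 33.3% beside the 17.5% of all genes. The recognition complex subunits Orc2, Orc3, Orc4 and Orc5 had log2 fold changes of -0.06, 0.11, 0.03 and -0.08 and were not called, and neither was Orc6.

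The largest rises in that list belonged to a clamp-binding factor, a histone chaperone, an E2F and a fork protein. Pclaf, which binds PCNA, went from 4.07, 2.6 and 4.24 to 11.2, 8.22 and 10.5 FPKM (log2 fold change 1.25, limma adjusted p = 0.00218), and its span overlaps Trip4. Asf1b, the histone chaperone, rose by 0.85, E2f2 by 0.82 and Timeless, of the fork protection complex, by 0.81. Nme1, a nucleoside diphosphate kinase, was the gene that fell, from 24.5, 24.9 and 26.9 to 20.4, 19.4 and 21.3 FPKM (log2 fold change -0.31, limma adjusted p = 0.0101). Its groups were separate.

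Cyclins and Cdk2, which drive entry into S phase, rose as well. Ccne1, the cyclin E that partners Cdk2, was at 3.71, 3.04 and 3.56 FPKM in NC against 6.29, 5.13 and 5.42 FPKM with the antagomiR (log2 fold change 0.58, limma adjusted p = 0.00545). Ccne2 rose by 0.38, Ccna2, the S phase cyclin, by 0.52, Cdk2 by 0.46 and Cdc45, which joins MCM and GINS in the active helicase, by 0.51. The repressors E2f7 and E2f8 lay below the filter, with group means of 0.677 and 1.26 FPKM for E2f7 and of 0.466 and 1.06 FPKM for E2f8 in NC and with the antagomiR, and their groups were separate. Rb1, which holds E2F in check, was not called (log2 fold change -0.09, limma adjusted p = 0.528). Rbl1 and Rbl2, of the same list, rose by 0.68 and 0.27 (limma adjusted p = 0.00114 and 0.04).

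The promoters of the members were searched for the E2F-type 8-mers TTTCCCGC, TTTCGCGC, TTTGCCGC and TTTGGCGC on both strands. RefSeq windows of GRCr8, from 250 bases before to 50 after the start, were found for 41 of the 47 genes, and 18 of them (43.9%) held at least 1 match. A match was found in 2.37% of all 27457 genes with a RefSeq window and in 4.5% of the 8585 tested genes with one. Windows of members and of tested genes had a like median GC content, 60.3% and 61.3%. Among members with a window, 14 of 27 risen and 3 of 11 tested but uncalled ones held a match. Risen genes outside the members held one in 71 of 1521 with a window (4.67%), near the 4.5% of tested genes. Of 28 matches 20 began within 60 bases of the start, and 4 pairs overlapped each other on opposite strands. A match is a run of letters and does not show that a factor binds there, and a window without one says nothing of the factor.

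The sequences below are from the risen members whose match lies wholly before the start. They are given because Mcm5 and Mcm7, the MCM genes with the largest log2 fold changes, are among them. Each is 60 bases of GRCr8 on the strand of the gene, and capitals mark the matches. Mcm5 is at chr19:13488753-13488812 (plus), Mcm2 at chr4:122918095-122918154 (minus), Mcm6 at chr13:42404454-42404513 (minus), Mcm7 at chr12:22163197-22163256 (minus) and Gins1 at chr3:160184860-160184919 (plus). Tyms is at chr9:120776087-120776146 (minus), Uhrf1 at chr9:1223061-1223120 (plus) and Pola1 at chrX:62342494-62342553 (minus).
Mcm5: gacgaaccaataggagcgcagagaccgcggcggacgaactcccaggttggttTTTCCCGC
Mcm2: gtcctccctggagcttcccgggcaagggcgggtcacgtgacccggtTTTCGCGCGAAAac
Mcm6: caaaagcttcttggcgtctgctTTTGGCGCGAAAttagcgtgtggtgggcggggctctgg
Mcm7: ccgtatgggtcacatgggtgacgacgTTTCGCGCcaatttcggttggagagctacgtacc
Gins1: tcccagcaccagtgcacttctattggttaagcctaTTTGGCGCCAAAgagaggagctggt
Tyms: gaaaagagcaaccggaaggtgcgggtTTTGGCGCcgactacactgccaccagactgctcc
Uhrf1: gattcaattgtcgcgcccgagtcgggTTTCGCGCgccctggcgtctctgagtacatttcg
Pola1: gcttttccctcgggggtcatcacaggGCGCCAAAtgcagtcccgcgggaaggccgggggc

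In Mcm2, Mcm6 and Gins1 the capitals join 2 overlapping matches, 1 on each strand, into 12 bases. Mcm5 has such a pair too, beginning 213 bases before the start, and a single match that ends at the base before the start. Mcm3, Pole and Rfc3 hold matches that span the start, and those of Cdt1, Gmnn, Lig1, Pold3, Pole2 and Rpa2 lie after it. Of the members that stayed level, Dut, Orc6 and Pold2 had windows without a match, and Gins4 and Rpa3 had no window here. Rfc3, Rpa2 and Gins3 held matches and were not called, and Rrm1, Tk1, Pcna, Fen1 and Prim1 rose without one in the window.

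**Figure D5:**
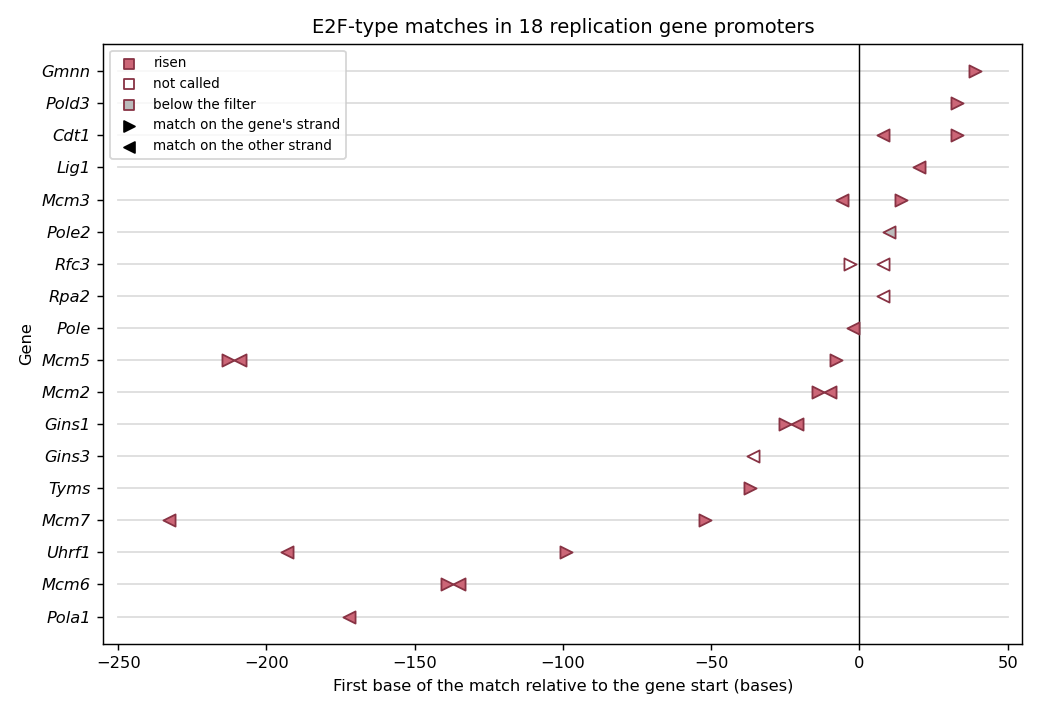
First base of each E2F-type match relative to the gene start in the 18 member promoters that hold one; triangles point along the strand of the match and colour gives the call of the gene. Of 28 matches 20 begin within 60 bases of the start, and the uncalled genes among them are Rfc3, Rpa2 and Gins3.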

How the data were processed

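The values are FPKM as deposited by the authors, with 1 column for each library, from 3 NC and 3 antagomiR libraries of polyadenylated RNA; every value column was assigned to a library. Per the submitters' processing notes, FastQC, cutadapt, HISAT2, HTSeq and edgeR were used, without versions, with the build mRatBN7.2. The strand setting and annotation release are not given in the sources used, and 11 members overlap another entry. Among the risen members these are Mcm7, Tk1 (Syngr2 and Afmid), Prim1 (Hsd17b6), Lig1 (Zswim9), Pole (SNORA70) and Pola1. Genes averaging 1 FPKM or more over the libraries were put on the log2(FPKM + 1) scale and tested two-sided by limma 3.58.1 (R 4.3.3; variance trend on), with Benjamini-Hochberg adjustment. Totals and fragment counts were recovered from the FPKM values as whole numbers within 0.01 for 100% of 20134 genes above 0. The test was checked on simulated data with the same variance setting for every gene. There 17 of 186 calls were false, and 71%, 96% and 100% of changes of 1.5, 2 and 4 fold were recovered. Alternatives were other pseudocounts (0.1, 0.01), filters (none, 0.1 and 5 FPKM), scalings, a replicate block, no trend, robust variances, voom on recovered fragments and leaving out each library. The members, gene lists and the rule for named genes (the 3 smallest and up to 2 largest p in each role, the 4 largest changes in each direction among other genes, and chosen regulators) were set with earlier results of these data known; genes outside the rule were named after their values were seen. Promoter and microRNA sequences are RefSeq's (GRCr8), and no coordinates were converted.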

Additional observations from a re-analysis of the deposited data

How the results depend on the processing

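All alternatives were fixed with earlier results of these data known. Of 43 tested members, 23 of the 30 risen kept the call under every alternative run for them, 7 lost it in at least 1 (Mcm10, Dbf4, Pola1, Pold1, Pold3, Pole and Chaf1a) and 4 others gained it in at least 1 (Gins3, Prim2, Rfc3 and Rfc4). Over pairs of a member and an alternative, 644 had the same call and sign as reported, 47 no longer had the call, 8 newly had it and 13 changed sign. The count of risen members was 16 of 24 tested at a filter of 5 FPKM, which tests fewer genes, and 23 to 32 without 1 library; none fell under any alternative. With the replicate block 25 rose. For NC and antagomiR libraries of equal number, the correlations of their deviations were -0.16, -0.06 and -0.04, and no library correlated best with its own number, so the numbers were not taken as pairs.

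The median log2 fold change of the members was 0.57 and 0.58 with pseudocounts of 0.1 and 0.01, which shrink low genes less, 0.58 by voom, 0.46, 0.47 and 0.5 with no filter, 0.1 and 5 FPKM, 0.42 with median-ratio scaling, 0.34 with quantile normalization, and 0.46 to 0.49 without 1 library. Of the other replication and S phase genes 14 of 37 rose at 5 FPKM and 20 to 32 without 1 library; 2 fell under median-ratio scaling and under quantile normalization, and 1 to 3 without 1 library, 3 of them without NC replicate 3. Signs turned only for members not called. Under quantile normalization Orc6 was at -0.06, Cdc7 at -6.26e-05, Gins4 at -0.09, Pold2 at -0.11 and Dut at -0.09, and under median-ratio scaling Pold2 at -0.04 and Dut at -0.03. Without NC replicate 2, Pold2 was at -0.02 and Dut at -0.06; without antagomiR replicate 1, Gins4 at -0.02; without antagomiR replicate 2, Pold2 at -0.00458; without antagomiR replicate 3, Dut at -0.00351; and without NC replicate 1, Rpa3 at 0.01. Over all fits without 1 library, Gins4 ran from -0.02 to 0.15, Pold2 from -0.02 to 0.08, Rpa3 from -0.15 to 0.01 and Dut from -0.06 to 0.09. The cause was not tested. Depth limits Rnaseh2a, with 0 to 2 fragments a library, and also Orc1, Gins2 and Pole2, with 18 to 96, and Chaf1b, with 24 to 59.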
